A study of Homo sapiens with 97 samples.

Results

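The 32 transcripts described here encode proteins of the nuclear pore complex and of the machinery that carries mRNA and protein through it. They were taken by gene name from a fixed list and found by their Ensembl identifiers among the 60675 genes of every count table, and all 32 passed the filter on low counts in every table. By role, 8 encode the outer ring (the Y complex), 5 the inner ring, 3 the central channel, 5 the cytoplasmic face, 3 the nuclear basket, 3 the membrane ring, 3 are mRNA export factors and 2 are transport receptors.

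The nuclear pore complex is a ring-shaped gate in the nuclear envelope, the double membrane whose outer sheet is continuous with the endoplasmic reticulum (ER). Its membrane ring holds it in the envelope, its scaffold rings shape the channel, and its channel nucleoporins carry phenylalanine-glycine repeats that transport receptors bind. Spliced mRNA leaves through it bound to the NXF1-NXT1 dimer. The measurements below concern where the mRNAs that encode these proteins were found, not the proteins themselves.

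The cells were HEK293T, a human embryonic kidney line, each stably expressing APEX2, a peroxidase that tags nearby RNA with biotin when biotin-phenol and hydrogen peroxide are present. Biotinylated poly(A) RNA was enriched and sequenced from cells given peroxide (labelled) and from cells taken through the same steps without it (unlabelled), with 2 libraries per group. APEX2 was directed to the nuclear pore (NucPore), nuclear lamina (LMA), cytosolic face of the ER membrane (ERM), cytosol (NES), nucleus (NLS), nucleolus (NIK), outer mitochondrial membrane (OMM), ER lumen (KDEL) or mitochondrial matrix (MITO). OMM and NES cells were also treated with cycloheximide, puromycin or CCCP, or with nocodazole for 3, 6, 9 or 30 min or 2 h. MITO cells were also sequenced from total RNA, and nuclear and cytosol fractions were sequenced without labelling, for 97 libraries in 49 groups.

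Libraries held 9330259 to 76714068 counts in the table of the 9 constructs, 34961110 to 44973261 in the fractions, 22749527 to 55763066 with the 3 drugs and 15473060 to 33966883 with nocodazole. In 7 of the 36 libraries of the constructs, over 2% of the genes that average at least 5 CPM (counts scaled to a common library total) lacked any count. ERM labelled replicate 1 (5.02%), NES unlabelled replicate 1 (3.37%) and OMM unlabelled replicate 2 (4.06%) were among them. So were NIK labelled replicates 1 (6.06%) and 2 (2.94%), NucPore labelled replicate 1 (2.21%) and NucPore unlabelled replicate 1 (2.10%). Genes known in HEK293T were present over the 36 libraries, with VIM at 209 to 990 CPM, NEFM at 42.0 to 253 CPM and KRT18 at 10.2 to 71.2 CPM. Of 6 markers of other cell types, HBB and PECAM1 did not pass the filter on low counts, PTPRC and ALB had medians of 0, and EPCAM had a median of 0.64 CPM (at most 11.6). COL1A1, a collagen of fibroblasts, was present at a median of 10.8 CPM (at most 30.7). ERM labelling raised the ER-bound mRNAs SCD (log2 fold change 2.76 ± 0.14 SE) and CANX (2.10 ± 0.17).

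Of the proteins encoded, 3 span the membrane: NUP210, POM121 and NDC1. Membrane-spanning stretches are rich in phenylalanine, leucine, isoleucine, methionine and valine, whose codons all have T as their second letter. The 21-codon coding window with the most such codons is printed below for these transcripts, and for NUP155 and SEC13, soluble scaffold proteins with opposite ERM labelling. The capitals mark the second-letter T.
NDC1: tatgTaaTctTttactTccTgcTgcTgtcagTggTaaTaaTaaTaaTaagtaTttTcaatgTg
NUP210: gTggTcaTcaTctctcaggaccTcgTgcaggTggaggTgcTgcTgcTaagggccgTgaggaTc
POM121: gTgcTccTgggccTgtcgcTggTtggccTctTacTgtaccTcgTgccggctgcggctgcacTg
NUP155: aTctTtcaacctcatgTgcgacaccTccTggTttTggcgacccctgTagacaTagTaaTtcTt
SEC13: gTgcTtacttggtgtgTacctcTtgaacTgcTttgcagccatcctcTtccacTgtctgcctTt

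The sequences are GENCODE 29 transcripts on GRCh38, read along the coding strand, from NDC1 on chromosome 1 (53765460 to 53838860, minus strand), NUP210 on chromosome 3 (13316235 to 13420309, minus), POM121 on chromosome 7 (72879365 to 72951440, plus), NUP155 on chromosome 5 (37288137 to 37371181, minus) and SEC13 on chromosome 3 (10293131 to 10321178, minus). NDC1 had 16 such codons of 21, at codons 69 to 89, a count reached by 4.17% of 19658 protein-coding genes. NUP210 had 13, POM121 and NUP155 had 12 and SEC13 had 9, against a median of 11 over those genes. The window in NUP210 (codons 1152 to 1172) is not its membrane-spanning segment, which lies near its C terminus, so the count alone did not mark the membrane proteins.

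Per kilobase of exon, the level over the 18 unlabelled libraries ran from a median of 118.9 CPM per kb for KPNB1, an import receptor, to 5.87 for SEH1L, an outer-ring subunit. Exon length was the union over all annotated transcripts of a gene. For SEH1L it was 10481 bases, against 1846 in its transcript with the longest coding sequence, so its place depends on that choice. NUP205 (60.7), NUP133 (50.2) and XPO1 (49.0), the receptor of nuclear export signals, followed KPNB1, and the ranges of these 3 overlapped. NUP214 (7.12) and NUP35 (7.42) had overlapping ranges next to SEH1L at the low end. RANBP2 and POM121 have near-identical copies in the genome, the RGPD genes and POM121C, so their counts are uncertain.

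The fractions asked which transcripts were held in the nuclear pellet and which in the cytosol. Most members were lower in the nuclear fraction: 18 fell, 5 rose and 9 did not pass the test. Over all 19115 genes tested, 62% were called (34.2% higher, 27.8% lower) by the edgeR quasi-likelihood test at a Benjamini-Hochberg adjusted p under 0.05, the rule for all calls below. The 23 calls of 32 are near that share. The median log2 fold change of the members was -0.52, against 0.11 for all genes. Among genes averaging at least 5 CPM, a comparison chosen after seeing the data, 63.6% were called and the median was -0.26. With nuclear replicate 2 left out, or with no filter on low counts, 15 members were called.

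All 5 inner-ring transcripts and 5 of the 8 of the outer ring fell in the nuclear fraction. Of the inner ring, NUP93 (-1.13 ± 0.18), NUP188 (-0.81 ± 0.17), NUP35 (-0.71 ± 0.22), NUP155 (-0.60 ± 0.16) and NUP205 (-0.46 ± 0.16) fell. Of the outer ring, SEC13 (-1.43 ± 0.17), SEH1L (-1.27 ± 0.18), NUP37 (-1.20 ± 0.19), NUP160 (-0.55 ± 0.18) and NUP133 (-0.54 ± 0.17) fell. The channel transcripts NUP62 (-0.79 ± 0.18) and NUP54 (-0.65 ± 0.18) also fell, as did NUP88 (-1.11 ± 0.17) and RAE1 (-0.66 ± 0.18) of the cytoplasmic face and NUP50 (-0.66 ± 0.17) of the basket. Of these 15, 7 (NUP35, NUP205, NUP160, NUP133, NUP54, RAE1 and NUP50), and KPNB1, lost their calls when single libraries were left out, with adjusted p of 0.0599 to 0.198. With no filter on low counts the calls of NUP160, NUP133, NUP54, NUP205, NUP35 and KPNB1 were lost as well. SEC13, a Y-complex protein shared with the COPII coat, had 94.7 and 86.1 CPM in nuclear libraries against 244 and 243 CPM in cytosol libraries. The nuclear and cytosol libraries did not overlap, and the log2 fold change was -1.43 ± 0.17 (SE, n = 2 each, edgeR adjusted p = 1.76e-05). The share of all genes whose groups did not overlap is not given, here or below, so separation adds nothing to the test. GLE1, which acts at the cytoplasmic end of export, had 62.0 and 54.6 CPM in nuclear libraries against 130.4 and 157.7 CPM in cytosol libraries (-1.30 ± 0.18, edgeR adjusted p = 6.7e-05). NXT1, the small partner of NXF1, fell by 1.36 on the log2 scale, while NXF1 itself was at -0.09 ± 0.18 (edgeR adjusted p = 0.681). NXF1 thus did not pass the test, and its groups overlapped at 148.7 and 145.9 CPM in nuclear libraries against 135.4 and 177.9 CPM in cytosol libraries.

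The 5 that rose in the nuclear fraction were NUP210, RANBP2, TPR, XPO1 and NDC1. NUP210, a membrane-ring glycoprotein, had 284 and 349 CPM in nuclear libraries against 84.4 and 76.8 CPM in cytosol libraries, a log2 fold change of 1.97 ± 0.18 (edgeR adjusted p = 4.12e-06). It was the highest of the 32. RANBP2, the SUMO ligase of the cytoplasmic filaments, had 506 and 449 CPM in nuclear libraries against 239 and 243 CPM in cytosol libraries (0.99 ± 0.16, edgeR adjusted p = 0.000229). TPR, the scaffold of the nuclear basket, had 939 and 814 CPM in nuclear libraries against 479 and 456 CPM in cytosol libraries (0.91 ± 0.17, edgeR adjusted p = 0.000487). For each of these 3 the nuclear libraries were both above the cytosol ones.

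NDC1 (0.47 ± 0.17) and XPO1 (0.63 ± 0.17) were smaller changes whose calls were lost in several alternatives. The edgeR adjusted p of NDC1 was 0.135 without cytosol replicate 1 and 0.265 without nuclear replicate 1. That of XPO1 was 0.1 without cytosol replicate 2 and 0.0564 without nuclear replicate 2. With no filter on low counts it was 0.0726 for NDC1 and 0.0511 for XPO1, and for NDC1 it was 0.0939 with RLE factors and 0.15 with DESeq2. POM121, the other membrane-ring transcript, was at 0.30 ± 0.20 and KPNB1 at -0.49 ± 0.17. The ER-bound mRNAs CANX (1.77 ± 0.17) and SCD (0.80 ± 0.17) were higher in the nuclear fraction too, and the part of ER-bound RNA in the values of NUP210 and NDC1 was not tested. MALAT1, a nuclear RNA, was at 4.52 ± 0.20 and GAPDH at -1.28 ± 0.18.

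**Figure D1:**
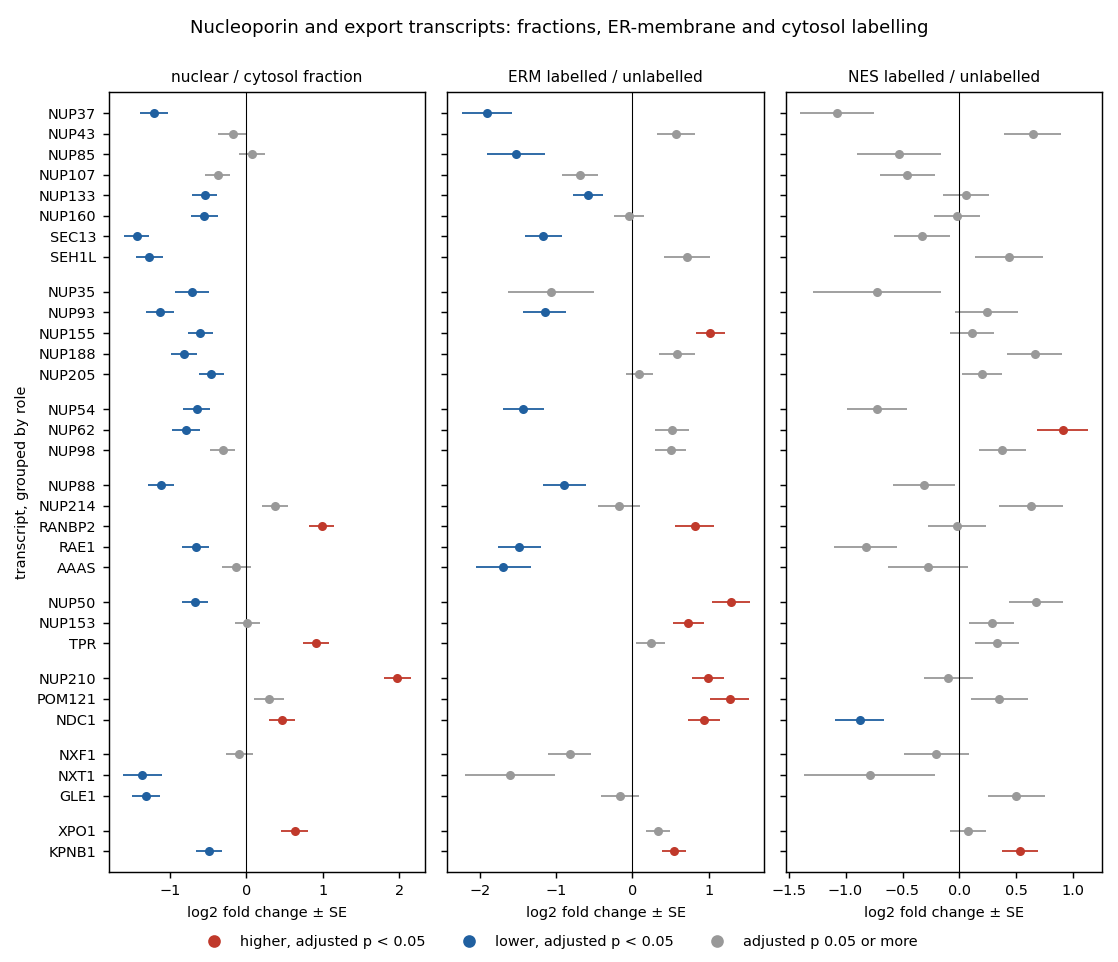
Log2 fold change ± SE of the 32 transcripts, ordered by role, for the nuclear over the cytosol fraction, ERM labelled over unlabelled and NES labelled over unlabelled (2 libraries per group). Red and blue points passed the test; each panel has its own axis, and the membrane-ring transcripts NUP210, POM121 and NDC1 all lie right of 0 in the ERM panel.

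ERM labelling asked which transcripts lay at the cytosolic face of the ER. It called more members than any other of the 9 untreated constructs: 8 rose, 9 fell and 15 did not pass the test, so 17 of 32 were called against 12.9% of all 22680 genes (5.26% higher, 7.6% lower). Among genes averaging at least 5 CPM, 23.9% were called. With ERM labelled replicate 1 or unlabelled replicate 2 left out, or with the ERM libraries fitted alone, 11 members were called. The median of the members was 0.02 and that of all genes 0.00.

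All 3 membrane-ring transcripts rose with ERM labelling. POM121, which anchors the pore in the membrane, had 288 and 272 CPM in labelled libraries against 111 and 121 CPM in unlabelled libraries (1.28 ± 0.25, edgeR adjusted p = 0.000386). NUP210 had 535 and 497 CPM in labelled libraries against 257 and 261 CPM in unlabelled libraries (0.99 ± 0.21, edgeR adjusted p = 0.000959). NDC1, a multi-pass membrane protein, had 321 and 455 CPM in labelled libraries against 225 and 179 CPM in unlabelled libraries (0.94 ± 0.21, edgeR adjusted p = 0.00185). The groups did not overlap for any of the 3, but the call of NDC1 was lost without ERM labelled replicate 2 (edgeR adjusted p = 0.0688) or ERM unlabelled replicate 2 (0.0886).

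The other 5 that rose encode proteins with no membrane-spanning segment. NUP50, a basket protein that binds importins, had 288 and 239 CPM in labelled libraries against 98.7 and 116 CPM in unlabelled libraries (1.29 ± 0.24, edgeR adjusted p = 0.000194). NUP155, an inner-ring scaffold protein, had 287 and 306 CPM in labelled libraries against 162 and 129 CPM in unlabelled libraries (1.02 ± 0.19, edgeR adjusted p = 0.000198). Both showed groups that did not overlap. RANBP2 (0.82 ± 0.26), NUP153 (0.73 ± 0.20), a basket protein, and KPNB1 (0.55 ± 0.16) also rose, and each lost its call when single libraries were left out. Without ERM labelled replicate 1 the edgeR adjusted p was 0.0901 for RANBP2, 0.115 for NUP153 and 0.345 for KPNB1. Without ERM unlabelled replicate 2 it was 0.4, 0.179 and 0.241 in the same order, and for RANBP2 it was 0.102 without ERM labelled replicate 2.

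The 9 that fell came from the scaffold, the channel and the cytoplasmic face. NUP37, a Y-complex subunit, had 18.7 and 23.5 CPM in labelled libraries against 89.2 and 69.2 CPM in unlabelled libraries (-1.91 ± 0.33, edgeR adjusted p = 6.31e-05). RAE1, which binds NUP98 and mRNA, had 41.8 and 29.1 CPM in labelled libraries against 92.7 and 105.9 CPM in unlabelled libraries (-1.49 ± 0.28, edgeR adjusted p = 0.000199). NUP54, a channel protein, had 30.3 and 50.5 CPM in labelled libraries against 119.6 and 98.9 CPM in unlabelled libraries (-1.43 ± 0.27, edgeR adjusted p = 0.000175). In these 3 every labelled library was below every unlabelled one.

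AAAS, mutated in triple A syndrome, was at -1.70 ± 0.36 and SEC13 at -1.17 ± 0.25. NUP85 (-1.53 ± 0.38), NUP93 (-1.15 ± 0.28), NUP88 (-0.89 ± 0.28) and NUP133 (-0.58 ± 0.20) also fell, each with a call that rested on single libraries. NUP85 had 12.7 CPM in ERM labelled replicate 1 and 58.4 CPM in replicate 2, and its edgeR adjusted p was 0.17 without replicate 1. NUP93 had 0.136 without ERM labelled replicate 2. NUP88 lost its call without any 1 of the 4 ERM libraries (edgeR adjusted p 0.076 to 0.146), and NUP133 without ERM labelled replicate 1 (0.527), ERM unlabelled replicate 1 (0.251) or ERM unlabelled replicate 2 (0.0717). TPR (0.24 ± 0.19), XPO1 (0.34 ± 0.16), NXF1 (-0.83 ± 0.29), NXT1 (-1.61 ± 0.59), GLE1 (-0.16 ± 0.25), SEH1L (0.72 ± 0.30) and NUP205 (0.09 ± 0.18) did not pass the test. With the ERM libraries fitted alone the calls of NDC1, RANBP2, NUP153, KPNB1, NUP85, NUP93 and NUP133 were lost (adjusted p 0.0542 to 0.167). All told, 9 of the 17 calls held in every alternative run: POM121, NUP210, NUP50, NUP155, NUP37, RAE1, NUP54, AAAS and SEC13.

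**Figure D2:**
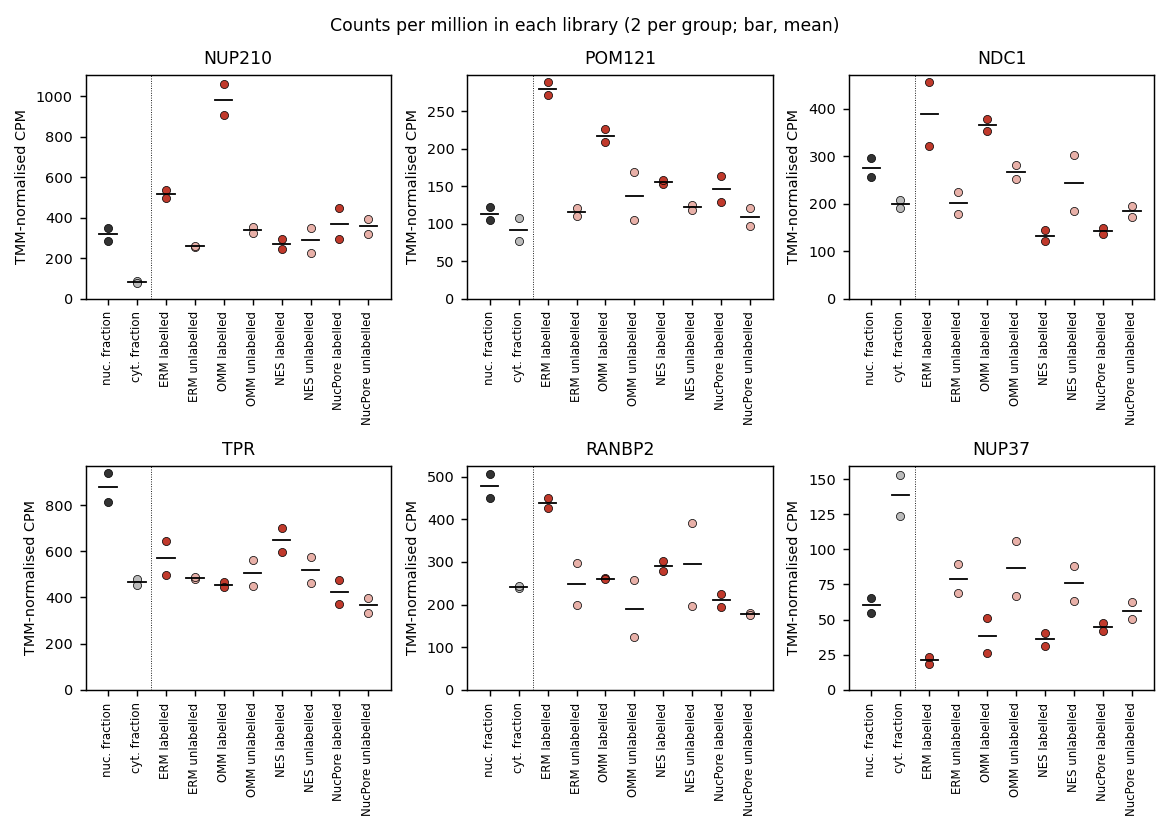
TMM-normalised CPM of 6 transcripts in each library (points; 2 per group; bar, mean) for the nuclear (black) and cytosol (grey) fractions and, labelled dark and unlabelled pale, for ERM, OMM, NES and NucPore labelling. NUP210 in OMM labelled cells, at 907 and 1058 CPM, stands above its other libraries, and NUP37 is lowest in ERM labelled cells.

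The members that rose and fell with ERM labelling differed in transcript length. The 8 that rose had a median length of 6084.5 bases (3750 to 11711) and the 9 that fell 2367 bases (1479 to 5207), by the GENCODE transcript with the longest coding sequence. Across the 32 members Spearman's rho of length with the ERM log2 fold change was 0.646, and across the 14701 other genes with a length it was 0.444. With NES labelling rho was 0.453 over members and 0.199 over other genes, and with OMM labelling 0.63 and 0.194. With KDEL labelling it was -0.048 and -0.093. In the fractions, where nothing was labelled, rho was 0.577 over members and 0.201 over 13491 other genes. There the 5 members higher in the nuclear fraction had a median of 7193 bases and the 18 lower 3118.5 bases. These are descriptions across genes, which share libraries and are not independent. Some of the transcripts used have little 3' untranslated sequence, with 3 bases in POM121 and 14 in RAE1, so their lengths may be understated. The part of length in the ERM differences was not tested.

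**Figure D3:**
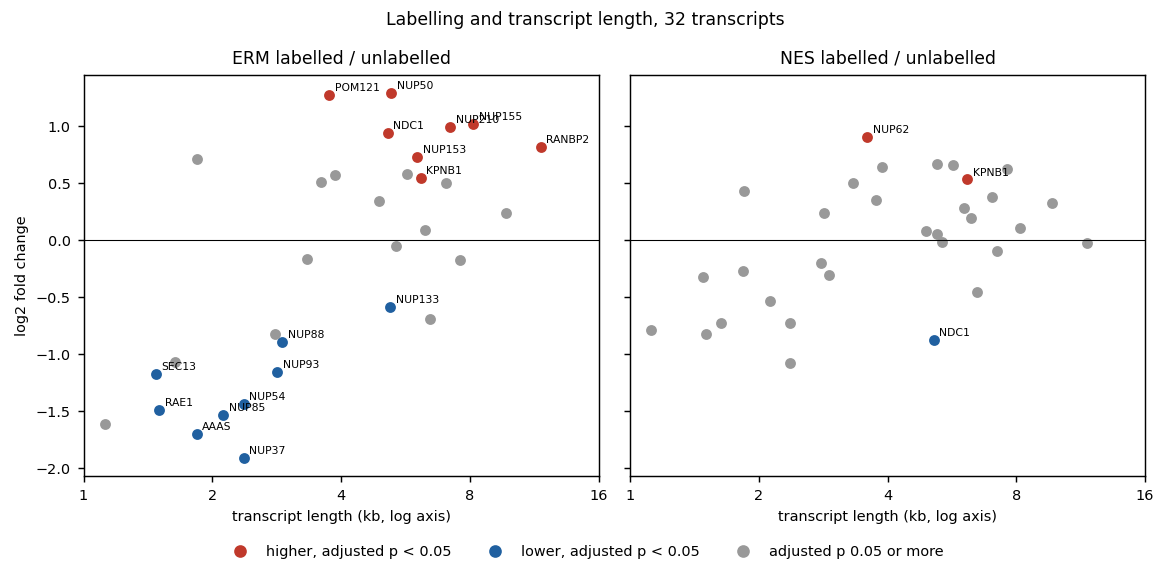
Log2 fold change with ERM (left) and NES (right) labelling against transcript length on a log axis, 1 point per transcript, coloured by call. In the ERM panel the 9 transcripts that fell are at most 5207 bases long.

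NES labelling, which tags RNA in the cytosol, called 3 of 32 members, against 3.88% of all genes and 7.44% of those averaging at least 5 CPM. The count was 0 with the NES libraries fitted alone, 1 without low-complexity libraries (those with over 2% of such genes lacking a count), 6 with DESeq2 and 11 with the controls of all 9 constructs. NUP62, a channel protein, had 198 and 214 CPM in labelled libraries against 86.1 and 133.7 CPM in unlabelled libraries (0.91 ± 0.22, edgeR adjusted p = 0.0123). KPNB1 rose (0.53 ± 0.16, edgeR adjusted p = 0.0469). NDC1 had 145 and 121 CPM in labelled libraries against 301 and 185 CPM in unlabelled libraries (-0.87 ± 0.21, edgeR adjusted p = 0.0121). None of the 3 calls held when single libraries were left out: without NES labelled replicate 2 the adjusted p was 0.167 for NUP62, 0.562 for KPNB1 and 0.372 for NDC1, and without NES unlabelled replicate 1 it was 0.534, 0.0597 and 0.568. Without NES labelled replicate 1 it was 0.0522 for NUP62 and 0.0542 for NDC1, and without NES unlabelled replicate 2 it was 0.21 for KPNB1. NUP210 (-0.10 ± 0.21), POM121 (0.35 ± 0.25), RANBP2 (-0.02 ± 0.26), TPR (0.33 ± 0.19), NXF1 (-0.20 ± 0.28) and XPO1 (0.08 ± 0.16) did not pass the test.

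Tested as a difference of the labelling effects, ERM labelling against NES labelling called 4 members, against 3.84% of all genes, and 1 with those libraries fitted alone. Among the 11829 genes averaging at least 5 CPM, 864 were called. NDC1 was 1.82 ± 0.30 higher on the log2 scale (edgeR adjusted p = 0.000208), and this call held in every alternative run. NUP210 (1.09 ± 0.30) and NUP155 (0.91 ± 0.27) were higher and NUP93 (-1.40 ± 0.39) lower. Leaving out any 1 of 6 of the 8 ERM and NES libraries ended the call of each of these 3, with adjusted p up to 0.313 for NUP155, 0.24 for NUP210 and 0.271 for NUP93. The effects share no control libraries.

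With OMM labelling, at the mitochondrial surface, 1128 of the 11829 genes averaging at least 5 CPM were called. Of the 32 members 3 were called, against 4.99% of all genes. The count was 1 with the OMM libraries fitted alone, 7 with no filter or without low-complexity libraries, 9 with DESeq2 and 11 with the controls of all 9 constructs. NUP210 had 907 and 1058 CPM in labelled libraries against 355 and 325 CPM in unlabelled libraries (1.53 ± 0.22, edgeR adjusted p = 1.17e-05). Labelled libraries were well above unlabelled ones, and the call held in every alternative run. RAE1 (-1.22 ± 0.28) and NUP37 (-1.17 ± 0.33) fell, and their adjusted p was 0.192 and 0.528 without OMM unlabelled replicate 2, and 0.0665 and 0.478 without OMM labelled replicate 2. Without OMM labelled replicate 1 that of RAE1 was 0.0602. POM121 (0.67 ± 0.25), NDC1 (0.46 ± 0.21), RANBP2 (0.45 ± 0.26), TPR (-0.15 ± 0.19), NXF1 (-0.85 ± 0.29), XPO1 (-0.26 ± 0.16) and KPNB1 (-0.12 ± 0.16) did not pass the test.

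The NucPore construct asked whether RNA near the pore includes the transcripts of the pore itself. The NucPore labelled libraries held 16199105 and 39617410 counts. Replicate 1 of each NucPore group lacked counts for over 2% of genes averaging at least 5 CPM (2.21% labelled, 2.10% unlabelled). Whether this limited what could be called was not tested. No member was called, nor was any of the 22680 genes (0 percent), while 1341 genes and 0 members had an unadjusted p under 0.05. DESeq2 called no member either; setting the labelled libraries against the controls of all 9 constructs gave 1. The members' log2 fold changes ran from -0.64 to 0.49, with NUP210 at 0.05 ± 0.21, POM121 at 0.42 ± 0.25, NDC1 at -0.36 ± 0.21, RANBP2 at 0.24 ± 0.26, TPR at 0.21 ± 0.19, NXF1 at 0.23 ± 0.28, XPO1 at 0.04 ± 0.16 and KPNB1 at -0.14 ± 0.16. NucPore labelling against NES labelling and against NLS labelling called no member by edgeR or DESeq2, with 4 and 0 members at an unadjusted p under 0.05, against 0.692% and 0.498% of all genes called. Against NES labelling, 1 was called with no filter.

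LMA labelling, at the lamina, called 1705 of the 11829 genes averaging at least 5 CPM. It called 4 members, against 7.68% of all genes. The count was 8 without low-complexity libraries and 10 with the controls of all 9 constructs. NUP43, of the Y complex, had 168 and 132 CPM in labelled libraries against 84.4 and 55.1 CPM in unlabelled libraries (1.11 ± 0.25, edgeR adjusted p = 0.00307). NXF1, the main mRNA export receptor, had 142 and 148 CPM in labelled libraries against 73.9 and 81.5 CPM in unlabelled libraries (0.90 ± 0.29, edgeR adjusted p = 0.047). SEC13 (-0.88 ± 0.25) and NUP188 (-0.84 ± 0.24), of the inner ring, fell. Each call was lost without 1 or more LMA libraries: without LMA labelled replicate 1 the adjusted p was 0.0863 for NUP43, 0.176 for NXF1, 0.1 for SEC13 and 0.286 for NUP188, and without LMA unlabelled replicate 1 it was 0.266 for NXF1, 0.195 for SEC13 and 0.196 for NUP188. Without LMA labelled replicate 2 it was 0.168 for NXF1, 0.196 for SEC13 and 0.05004 for NUP188, and without LMA unlabelled replicate 2 it was 0.122 for NUP43 and 0.144 for NXF1. RANBP2 (0.74 ± 0.26), TPR (0.59 ± 0.19), NUP210 (-0.22 ± 0.21), POM121 (-0.31 ± 0.25), NDC1 (-0.26 ± 0.21), XPO1 (0.14 ± 0.16) and KPNB1 (-0.40 ± 0.16) did not pass the test.

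LMA labelling against NES labelling called 916 of the 11829 genes averaging at least 5 CPM. It was lower for NUP188 (-1.50 ± 0.34), KPNB1 (-0.93 ± 0.22) and NUP62 (-1.10 ± 0.31), against 4.04% of all genes called. With DESeq2 7 were called and without low-complexity libraries 6, and the call of NUP188 held in every alternative run. That of NUP62 was lost without any 1 of 7 of the 8 libraries (adjusted p 0.0538 to 0.302) and in 3 other alternatives, and that of KPNB1 only when those libraries were fitted alone (0.078). NLS labelling called no member against unlabelled, against 5.2% of all genes, with 7 members at an unadjusted p under 0.05 and 1 called by DESeq2. The count was 8 with the NLS libraries fitted alone, 5 with the controls of all 9 constructs, 3 without low-complexity libraries and 1 with no filter. Both NIK labelled libraries were of low complexity (6.06% and 2.94%), so the removal of such libraries kept both. NIK labelling called XPO1 alone (0.53 ± 0.16, edgeR adjusted p = 0.0415), against 5.24% of all genes, and that call was lost without any 1 of the 4 NIK libraries. The NIK count was 0 with those libraries fitted alone, 3 with DESeq2, 7 without low-complexity libraries and 9 with the controls of all 9 constructs. NLS labelling against NES labelling called KPNB1 alone (-0.86 ± 0.22), against 2.28% of all genes, which was lost without NES labelled replicate 2 (adjusted p 0.136) or any NLS library (0.0662 to 0.122). That count was 0 with RLE factors, 2 with no filter and 3 without low-complexity libraries.

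**Figure D4:**
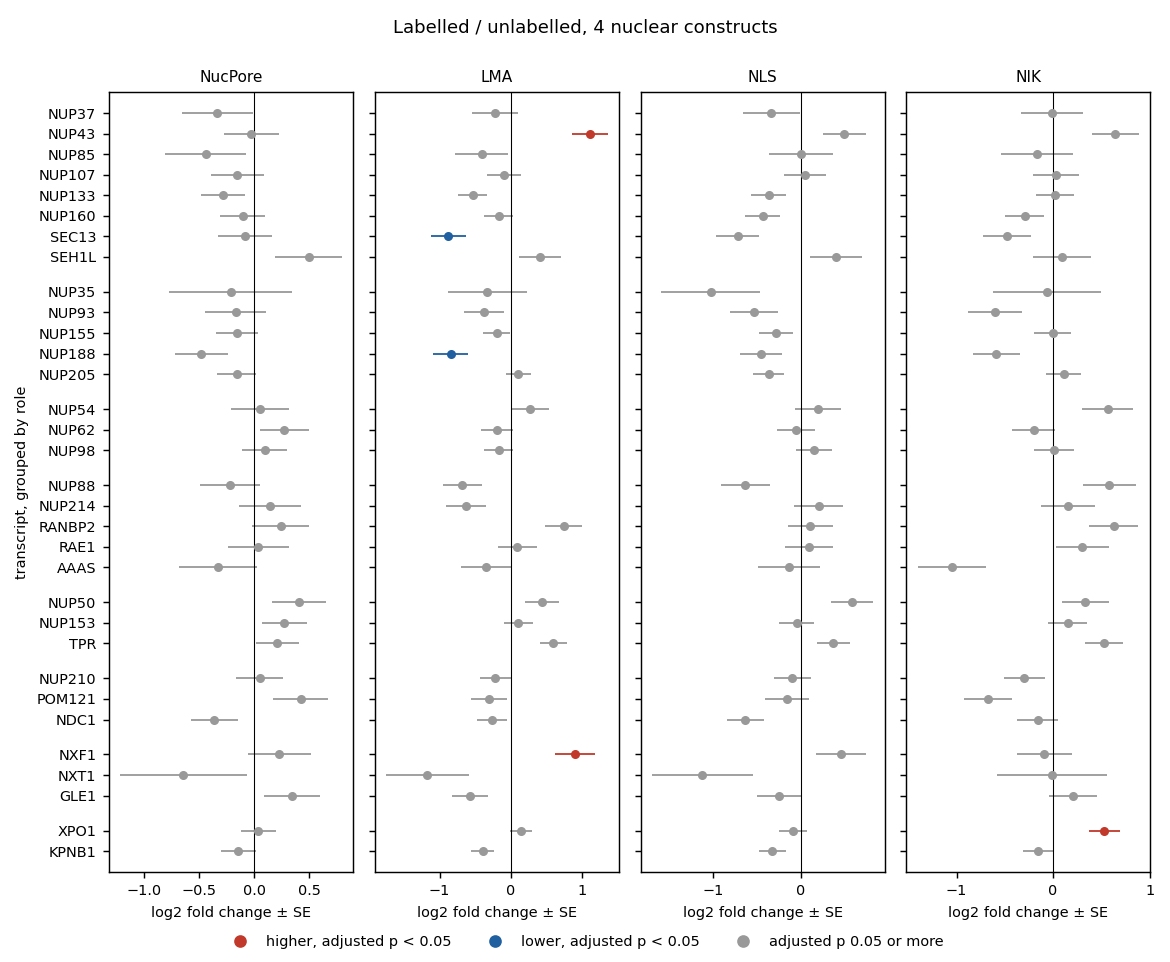
Log2 fold change ± SE of the 32 transcripts with labelling by the NucPore, LMA, NLS and NIK constructs against unlabelled cells (2 libraries per group), each panel with its own axis. No point passed the test with NucPore or NLS labelling; LMA has 4 and NIK has 1.

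Labelling inside membrane-bound spaces called few members. KDEL labelling called no gene and no member (0 percent), with 46 genes and 0 members at an unadjusted p under 0.05, and DESeq2 called no member. MITO labelling called NUP153 alone (-0.80 ± 0.20, edgeR adjusted p = 0.04), against 1.05% of all genes, and that call was lost without any 1 of the 4 libraries. Yet 26 members lay below 0 and 6 above with MITO labelling. Their median was -0.42, against 0 for all genes and -0.04 for those averaging at least 5 CPM. An unadjusted p under 0.05 was found for 15 members and for 1853 of 22680 genes. The count was 0 with RLE factors or the MITO libraries alone, 2 with no filter, 3 with DESeq2, 4 without low-complexity libraries and 5 with the controls of all 9 constructs. In total RNA of MITO cells no member was called, against 0.63% of 14911 genes, with 2 members at an unadjusted p under 0.05. These total RNA libraries held only 2835969 to 7883579 counts. Labelled replicate 1 lacked counts for 6.72% of genes averaging at least 5 CPM.

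Of lists outside the 32, 29 other transport receptors and Ran factors and 27 export adaptors were examined, of which 29 and 25 were tested. In the nuclear fraction 1 receptor rose and 16 fell, and 5 adaptors rose and 15 fell, beside 34.2% of all genes higher and 27.8% lower. RAN, the GTPase that gives transport its direction, was at -1.75 ± 0.18, NXT2 at -2.51 ± 0.26, and PABPN1, the nuclear poly(A)-binding protein, at 1.74 ± 0.19. DDX39B, an mRNA export helicase, was at 1.99 ± 0.17. With ERM labelling 4 receptors rose and 4 fell, among them TNPO1 (0.89 ± 0.18) and KPNA2 (-1.15 ± 0.18), while 0 adaptors rose and 8 fell, among them ALYREF (-2.40 ± 0.37), an adaptor that recruits NXF1, PCID2 (-1.99 ± 0.36) and DDX39B (-0.95 ± 0.20). Of all genes 5.26% were higher and 7.6% lower with ERM labelling, and 23.9% of those averaging at least 5 CPM were called, so the 8 receptors called of 29 are near that share. Of 5 other nucleoporins AHCTF1 and NUP62CL were tested, and neither passed in the fractions or with ERM, LMA or NES labelling. These lists were matched by gene name. Whether the listed genes not tested were missing by name or by level was not examined. AHCTF1, which seeds pores on chromatin, rose with NES labelling in cycloheximide (0.91 ± 0.22) and CCCP (0.81 ± 0.22).

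The drugs asked how labelling at the mitochondrial surface and in the cytosol depends on translation and on mitochondrial membrane potential. Cycloheximide freezes ribosomes on mRNA, puromycin releases nascent chains, and CCCP dissipates the potential. NUP210 rose with OMM labelling under each. With cycloheximide it had 1403 and 1264 CPM in labelled libraries against 311 and 493 CPM in unlabelled libraries (1.73 ± 0.21, edgeR adjusted p = 8.74e-06). With puromycin it had 530 and 549 CPM in labelled libraries against 276 and 259 CPM in unlabelled libraries (1.01 ± 0.21, edgeR adjusted p = 0.012), and with CCCP 852 and 698 CPM in labelled libraries against 299 and 383 CPM in unlabelled libraries (1.18 ± 0.21, edgeR adjusted p = 0.00122). The labelled libraries lay above the unlabelled ones in each drug, but the puromycin call was lost without any 1 of its 4 libraries, and the cycloheximide call with its libraries fitted alone (adjusted p 0.0504). The CCCP call held in every alternative run. Cycloheximide against puromycin did not pass the test for NUP210 (0.72 ± 0.29, edgeR adjusted p = 0.173).

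NDC1 rose with OMM labelling in cycloheximide, at 569 and 641 CPM in labelled libraries against 166 and 148 CPM in unlabelled libraries (1.95 ± 0.16, edgeR adjusted p = 4.28e-08). With puromycin it had 189 and 187 CPM in labelled libraries against 139 and 171.5 CPM in unlabelled libraries (0.28 ± 0.15, edgeR adjusted p = 0.562). The difference between the drugs was 1.67 ± 0.22 for NDC1 (edgeR adjusted p = 5.73e-05), against 5.61% of all genes called, and held in every alternative run. Both OMM cycloheximide unlabelled libraries lacked counts for over 2% of well-expressed genes (3.08% and 7.75%). With no library of their group under that limit, the removal of low-complexity libraries kept both, and it took out no library of this comparison. The ER-bound mRNA CANX had 7383 and 8198 CPM in OMM labelled cycloheximide libraries against 1357 and 1624 CPM in unlabelled ones. With puromycin it had 1577 and 1610 CPM against 949 and 900 CPM. SCD had 5167 and 5387 CPM against 1145 and 1168 CPM with cycloheximide, and 1414 and 1504 CPM against 902 and 943 CPM with puromycin. The part of ER-bound RNA in the OMM values of NDC1 and NUP210 was not tested. Cycloheximide against puromycin in OMM labelling called 1012 of the 11733 genes averaging at least 5 CPM. NUP93 (-1.58 ± 0.33) and NUP107 (-1.003 ± 0.26) were lower with cycloheximide than with puromycin, and their calls rested on single libraries. OMM labelling in cycloheximide against puromycin called 3 members, against 7 with DESeq2, 8 without low-complexity libraries and 9 with no filter.

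In cycloheximide, OMM labelling called 14 members (3 higher, 11 lower), against 17.7% of all genes (12.4% higher, 5.35% lower). NES labelling called 22 (15 higher, 7 lower), against 15.7% (7.91% higher, 7.77% lower). Among the 11733 genes averaging at least 5 CPM, OMM labelling called 3026, NES labelling 3113 and the difference between them 2563. The 3 higher with OMM labelling were NUP210, NDC1 and NUP155. NUP155 had 289 and 339 CPM in labelled libraries against 181 and 208 CPM in unlabelled libraries, and its call was lost in some alternatives. Of the 11 lower, NUP107, NUP160 and NUP85 held their calls in every alternative run. SEC13 fell with NES labelling to 58.4 and 69.7 CPM in labelled libraries, against 165.7 and 179.6 CPM in unlabelled libraries (-1.43 ± 0.16, edgeR adjusted p = 3.78e-06). NUP205, a large inner-ring protein (1.06 ± 0.14), NUP98 (0.86 ± 0.12), TPR (1.18 ± 0.19) and NUP50 (1.10 ± 0.18) rose with NES labelling, and these 5 calls held in every alternative run. The 15 that rose had a median length of 6030 bases and the 7 that fell 1840 bases. POM121 (1.11 ± 0.28), RANBP2 (0.90 ± 0.20), XPO1 (0.70 ± 0.14) and KPNB1 (0.93 ± 0.14) rose with NES labelling in cycloheximide, and each of these calls was lost in 1 or 2 alternatives (adjusted p up to 0.0884).

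Set against NES labelling in cycloheximide, OMM labelling called 18 members, 4 higher and 14 lower, against 13.5% of all genes (9.38% higher, 4.16% lower). With those libraries fitted alone 6 were called, and the adjusted p of NUP210 was 0.0539 and that of TPR 0.0532. NDC1 (1.83 ± 0.22) and NUP210 (1.91 ± 0.30) were among the 4 higher and TPR (-1.52 ± 0.26), NUP98 (-1.45 ± 0.17) and XPO1 (-1.15 ± 0.19) among the 14 lower. With puromycin and CCCP the same difference called no member by edgeR, against 0.112% and 0.00933% of all genes; DESeq2 called 1 and 0 members, and 5 and 4 had an unadjusted p under 0.05.

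In puromycin NES labelling called 7 members, 5 higher and 2 lower, against 7.82% of all genes, and in CCCP 12, 9 higher and 3 lower, against 8.36%. SEC13 fell in both, by 1.10 and by 1.17 on the log2 scale, and NUP153 rose in both (0.84 ± 0.15 with puromycin, 0.76 ± 0.15 with CCCP). OMM labelling called 1 member in puromycin, against 2.13%, and 5 in CCCP, against 6.84%. Of the 11733 genes averaging at least 5 CPM, NES labelling called 1564 in puromycin and 1755 in CCCP. OMM labelling called 456 and 1379 of them. In CCCP the 4 that fell with OMM labelling were NUP37, RAE1, NXT1 and SEC13, each with a transcript of at most 2372 bases and a call lost in 2 to 5 alternatives (adjusted p up to 0.279). Cycloheximide against puromycin in NES labelling called no member by edgeR and 1 by DESeq2, against 0.163% of all genes, with 4 members at an unadjusted p under 0.05.

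**Figure D5:**
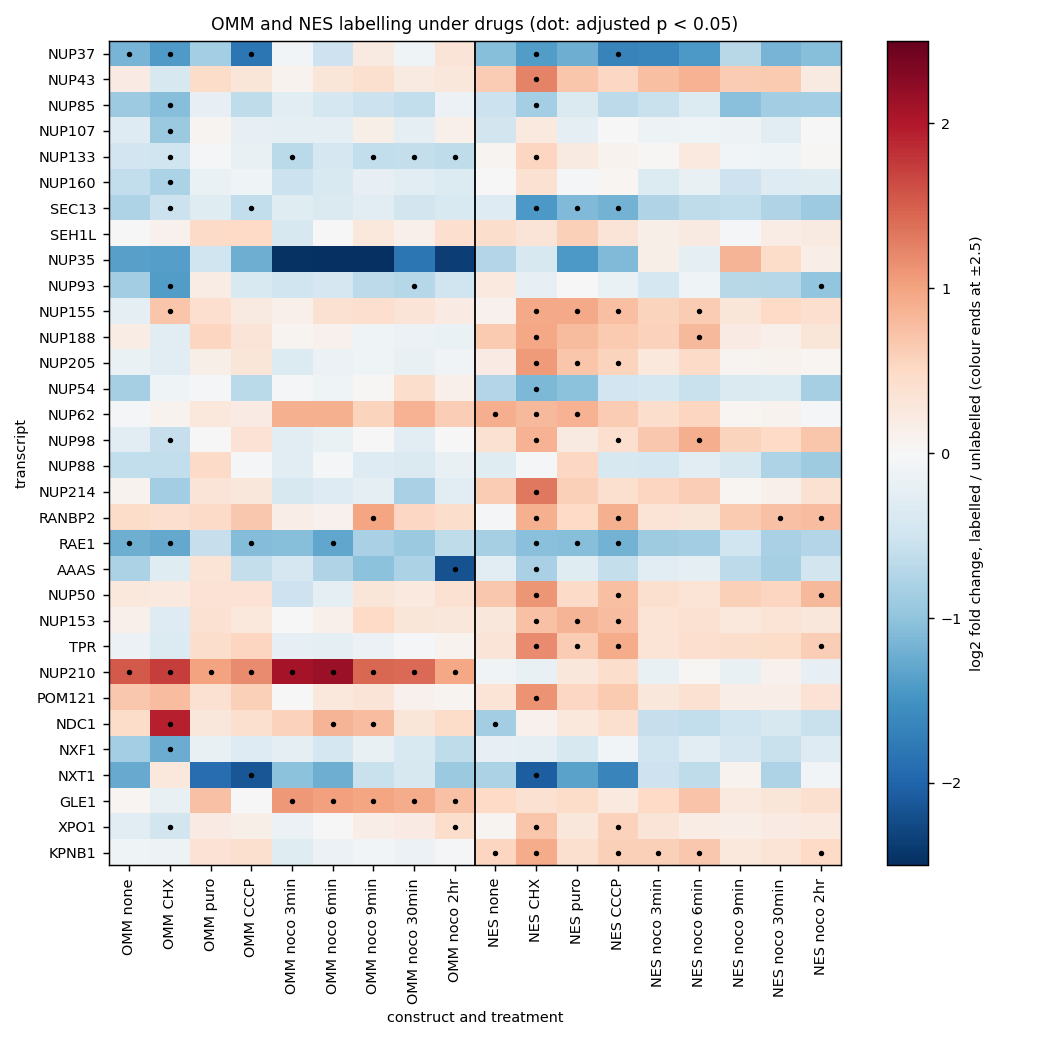
Log2 fold change of labelled over unlabelled cells for the 32 transcripts (rows) under each treatment of OMM (left block) and NES (right block); dots mark adjusted p under 0.05 and the colour ends at ±2.5. NUP210 carries a dot in all 9 OMM columns and in no NES column.

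Nocodazole depolymerises microtubules. Unlabelled libraries existed for 3 and 30 min, so each time was set against the mean of both, and the 5 times of a construct share these controls. All 4 OMM unlabelled libraries lacked counts for over 2% of well-expressed genes (2.98% to 16.3%). Neither of their groups had a library under that limit, so the removal of low-complexity libraries kept all 4. No alternative left them out as a set. NUP210 had 1098 and 1302 CPM in OMM labelled libraries at 3 min, 1204 and 1308 at 6 min, 770 and 759 at 9 min, 722 and 779 at 30 min and 631 and 476 at 2 h, against 248 to 361 CPM in the 4 unlabelled libraries. Every labelled library was above every unlabelled one. The log2 fold changes were 2.09 ± 0.15, 2.15 ± 0.15, 1.44 ± 0.15, 1.41 ± 0.15 and 0.97 ± 0.15 in order of time. The calls at 3 and 6 min held in every alternative run, while those at 9 min, 30 min and 2 h were lost when the libraries of the comparison were fitted alone (adjusted p 0.0928, 0.133 and 0.251). Change between times was not tested.

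GLE1 was higher with OMM labelling at all 5 times, from 1.09 ± 0.24 at 3 min to 0.73 ± 0.24 at 2 h. Its unlabelled libraries had 57.2, 38.9, 77.3 and 57.3 CPM, and the labelled ones ran from 79.3 to 134.0 CPM, all above the unlabelled. Its call was lost at each time without single libraries: without labelled replicate 2 at 3 min (adjusted p 0.0778), replicate 1 at 6 min (0.0603), either at 9 min (0.052 and 0.0551), replicate 1 at 30 min (0.118) and replicate 1 at 2 h (0.576). At 2 h it was also lost without unlabelled replicate 2 of 3 min (0.0654) or of 30 min (0.0883). NUP133 was lower at 4 of the 5 times (-0.67 ± 0.20 at 3 min), with calls that rested on single libraries. Of the 11591 genes averaging at least 5 CPM, OMM labelling called 1739, 2138, 1884, 1685 and 1875 in order of time. In all, OMM labelling called 3, 4, 5, 4 and 5 members from 3 min to 2 h, against 12.9%, 15.2%, 13.6%, 12.2% and 12.7% of 19611 genes. Over the 5 times together this is 9 members, against 14 with DESeq2 and 1 with the libraries of each comparison fitted alone.

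NES labelling with nocodazole called 1, 4, 0, 1 and 5 members from 3 min to 2 h, against 3.1%, 3.82%, 1.19%, 2.19% and 3.15% of genes. Of the 11591 genes averaging at least 5 CPM, it called 603, 743, 232, 427 and 603. At 9 min 11 members had an unadjusted p under 0.05. KPNB1 rose at 3 min (0.60 ± 0.13), 6 min (0.67 ± 0.13) and 2 h (0.50 ± 0.13), and RANBP2 at 30 min (0.74 ± 0.17) and 2 h (0.77 ± 0.17). None of these 11 calls, on 8 members, held in every alternative run. With RLE factors 5 members were called, without low-complexity libraries 1 and with the libraries of each comparison fitted alone 0. NUP210 ran from -0.20 to 0.10 with NES labelling over the 5 times and passed the test at none.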

How the data were processed

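The deposited counts per gene are whole numbers made by the authors; per the submitters' processing notes the tools included Trimmomatic, STAR, HTSeq, SAMtools and bedtools, with the build GRCh38 (hg38). Versions and the strand setting of the counting are not given in the sources used here. The authors' deposited log2 changes and p-values entered no test.

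The labels call replicates biological; the technical repeat of a MITO library was left out. Each count table was fitted on its own with edgeR 4.0.16 in R 4.3.3, in 1 model of group means, after TMM normalisation and filterByExpr. Differences were tested with the quasi-likelihood F test, adjusted over all genes by Benjamini-Hochberg, and called at an adjusted p under 0.05. The SE is the size of the log2 change divided by the root of F. CPM are TMM-normalised. The fits were tested on simulated data.

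The members and gene lists were chosen with earlier results of these data known. All 32 members may be named, with up to 4 genes of smallest p from each other list. A planned comparison of protein features was replaced, after the data were seen, by the codon windows, since protein sequences were not used here. NUP62, NUP98, NUP133, NUP160, NUP188 and TPR share exon bases with another gene on their strand, and 16 of the 32 with one on the other strand, so these counts are less certain. Alternatives were RLE factors, no filter, a replicate block, only the libraries of the comparison, the controls of all constructs, removal of low-complexity libraries (over 2% of genes averaging at least 5 CPM without a count, where a group kept 1), each library left out (keeping the dispersion trend of the whole table) and DESeq2 1.42.0.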

Additional observations from a re-analysis of the deposited data

Results flagged for a closer look

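The differences below are those in which the labelling effects of 2 constructs, or under 2 drugs, differed by edgeR's quasi-likelihood test of the difference itself (log2 scale, adjusted p under 0.05). LMA minus NES labelling was lower for NUP188 (-1.50), KPNB1 (-0.93) and NUP62 (-1.10). ERM minus NES labelling was higher for NDC1 (1.82), NUP155 (0.91) and NUP210 (1.09). ERM minus NES labelling was lower for NUP93 (-1.40). NLS minus NES labelling was lower for KPNB1 (-0.86). OMM minus NES labelling in cycloheximide was higher for NDC1 (1.83), NUP210 (1.91), NXT1 (2.33) and SEC13 (0.90). OMM minus NES labelling in cycloheximide was lower for NUP160 (-1.17), TPR (-1.52), NUP133 (-1.04), XPO1 (-1.15), NUP50 (-0.86), NUP188 (-1.26), NUP93 (-1.19), KPNB1 (-1.05), NUP98 (-1.45), NUP107 (-1.18), NUP43 (-1.64), NUP153 (-1.05), NUP214 (-2.19) and NUP205 (-1.34). NXT1 had low counts, at 12.5 and 13.3 CPM in OMM labelled libraries against 11.8 and 9.57 CPM in unlabelled ones. Its NES libraries had 6.41 and 10.2 CPM labelled against 25.4 and 44.2 CPM unlabelled. NUP214 had 54.1 and 213.7 CPM in the OMM unlabelled libraries, and replicate 2 of these lacked counts for 7.75% of well-expressed genes. OMM labelling in cycloheximide minus puromycin was higher for NDC1 (1.67). OMM labelling in cycloheximide minus puromycin was lower for NUP93 (-1.58) and NUP107 (-1.003). Of these calls, NDC1 held in every alternative run in each of its 3 differences, as did NUP188 for LMA and NUP133, NUP160, NUP205, NUP98 and XPO1 for OMM in cycloheximide.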

How the results depend on the processing

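Counts below are members called, of 32; counts not given stayed within 1.5 times. With DESeq2 they were 6 for NES, 1 for NLS, 3 for NIK, 9 for OMM and 3 for MITO labelling, 7 for LMA against NES, 1 for OMM against NES in puromycin, 7 (OMM) and 1 (NES) for cycloheximide against puromycin and 14 for OMM over the nocodazole times. With RLE factors they were 0 for MITO, 0 for NLS against NES and 5 for NES over the nocodazole times. With no filter they were 15 for the fractions, 1 for NLS, 7 for OMM, 2 for MITO, 1 for NucPore against NES, 2 for NLS against NES and 9 for cycloheximide against puromycin (OMM). With only the libraries of the comparison they were 11 for ERM, 0 for NES, 8 for NLS, 0 for NIK, 1 for OMM, 0 for MITO, 1 for ERM against NES, 6 for OMM against NES in cycloheximide, and 1 (OMM) and 0 (NES) over the nocodazole times. Without low-complexity libraries they were 8 for LMA, 1 for NES, 3 for NLS, 7 for NIK, 7 for OMM, 4 for MITO, 6 for LMA against NES, 3 for NLS against NES, 8 for cycloheximide against puromycin (OMM) and 1 for NES over the nocodazole times. With the controls of all 9 constructs they were 1 for NucPore, 10 for LMA, 11 for NES, 5 for NLS, 9 for NIK, 11 for OMM and 5 for MITO labelling. The cause of these differences was not tested. Removal of low-complexity libraries kept both NIK labelled, both OMM cycloheximide unlabelled and all 4 OMM nocodazole unlabelled libraries, since their groups had none under 2%.

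With a replicate block the counts were 2 for NIK, 7 for OMM, 1 for NucPore against NES and 2 for NLS against NES. Same-numbered libraries did not pair: over 60 pairs of groups their deviations correlated at -0.189 to 0.146, above 0.1 in 3. With the MITO numbers crossed, chosen after seeing the data, MITO labelling called 2.

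With each library left out in turn, counts were 15 to 21 for the fractions, 1 to 2 for LMA, 11 to 16 for ERM, 0 to 3 for NES, 0 to 5 for NIK, 1 to 4 for OMM, 0 to 2 for MITO and 0 to 1 for MITO total RNA. They were 0 to 1 for NucPore against NES, 2 to 4 for LMA against NES, 1 to 5 for ERM against NES and 0 to 2 for NLS against NES. They were 12 to 19 for OMM against NES in cycloheximide, 1 to 9 (OMM) and 0 to 2 (NES) for cycloheximide against puromycin, 13 to 19 (OMM) and 16 to 23 (NES) over the 3 drugs, and 7 to 14 (OMM) and 2 to 9 (NES) over the nocodazole times. Where a group was left with 1 library, that library was assumed to vary like the others. Of 174 calls of single members, 48 held in every alternative run and 0 changed direction.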
